A study of Homo sapiens with 4 samples.

Results

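Cyclins and cyclin-dependent kinases (CDKs) were followed through the induction of p53 in H1299 cells, a lung carcinoma line of human origin with no p53 of its own. They were taken as all genes with a probe set of 1 gene symbol whose symbol begins with CCN and a further letter, except CCNG1, or is CDK followed by digits only. This gave 48 of the 18417 genes measured, each represented by its brightest probe set. Of these, 14 drive the cell division cycle, 12 act mainly in transcription and 22 belong to neither class; the last include CCNB1IP1 and CCNDBP1, whose products are not cyclins, and the transcribed pseudogenes CCNYL2 and CCNYL6. CCNB3, CDK3 and CDK8 also belong to the first 2 classes but have no probe set of their own here, so they were not analysed.

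All 4 samples were total RNA of one stable H1299 line carrying a tet-on construct for wild-type mouse p53, grown in medium with tetracycline-free serum. The 2 uninduced arrays were from the line before induction, and the 2 induced arrays were from cells of that line treated with doxycycline, which turns the construct on, at 0.5 µg/mL for 24 hours. Whether the line is 1 clone is not stated, and no cells without the construct received doxycycline. The arrays of each group are labelled as technical replicates, so every p-value below measures only the spread between arrays. The RNA came from whole cultures, where fewer cells holding a transcript and less of it per cell cannot be told apart.

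A CDK is inactive until a cyclin binds it, and cells move through division as successive cyclins are made and destroyed. D-type cyclins with CDK4 and CDK6 start the passage through G1 by phosphorylating the retinoblastoma protein, E- and A-type cyclins with CDK2 carry cells through S phase, and B-type cyclins with CDK1 bring about mitosis. Other members of both families work on RNA polymerase II: CDK7 with cyclin H within TFIIH, CDK9 with cyclin T in the elongation factor P-TEFb, CDK12 and CDK13 with cyclin K, and CDK8 or CDK19 with cyclin C in the Mediator kinase module. p53 is known to restrain division chiefly through p21, a CDK inhibitor, and through the repressor complex DREAM, which binds CHR elements in promoters of mitotic genes.

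The following 6 promoter windows are shown because their genes carry the main contrast: CDK1, CCNB1, CCNB2 and CCNA2 were among the largest falls, whereas CCNK and CCNA1 rose. Each window runs from 250 bases before to 50 after the RefSeq start (build GRCh38.p14), 5′ to 3′ on the gene's strand. Capitals mark CHR elements, searched as TTTGAA or TTCGAA, and CCAAT boxes, searched as CCAAT, each on both strands.
CDK1, chr10:60778228-60778527, plus strand: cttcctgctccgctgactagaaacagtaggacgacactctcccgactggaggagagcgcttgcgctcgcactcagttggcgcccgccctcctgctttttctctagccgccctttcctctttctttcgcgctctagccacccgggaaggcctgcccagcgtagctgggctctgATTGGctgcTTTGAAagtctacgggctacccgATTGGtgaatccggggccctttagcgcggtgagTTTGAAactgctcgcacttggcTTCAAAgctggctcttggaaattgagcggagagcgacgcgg
CCNB1, chr5:69166900-69167199, plus strand: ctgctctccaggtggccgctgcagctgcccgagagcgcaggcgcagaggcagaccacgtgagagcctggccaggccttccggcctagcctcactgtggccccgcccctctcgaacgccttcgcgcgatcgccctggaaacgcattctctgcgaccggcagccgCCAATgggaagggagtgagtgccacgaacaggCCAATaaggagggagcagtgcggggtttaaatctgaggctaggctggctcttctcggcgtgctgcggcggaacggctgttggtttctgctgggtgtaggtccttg
CCNB2, chr15:59104896-59105195, plus strand: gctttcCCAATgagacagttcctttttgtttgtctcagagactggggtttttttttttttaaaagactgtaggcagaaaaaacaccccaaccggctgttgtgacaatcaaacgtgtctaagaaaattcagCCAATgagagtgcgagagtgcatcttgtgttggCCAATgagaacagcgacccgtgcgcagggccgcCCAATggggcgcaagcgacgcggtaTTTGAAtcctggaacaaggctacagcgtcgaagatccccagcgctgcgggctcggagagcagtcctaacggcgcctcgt
CCNA2, chr4:121823834-121824133, minus strand: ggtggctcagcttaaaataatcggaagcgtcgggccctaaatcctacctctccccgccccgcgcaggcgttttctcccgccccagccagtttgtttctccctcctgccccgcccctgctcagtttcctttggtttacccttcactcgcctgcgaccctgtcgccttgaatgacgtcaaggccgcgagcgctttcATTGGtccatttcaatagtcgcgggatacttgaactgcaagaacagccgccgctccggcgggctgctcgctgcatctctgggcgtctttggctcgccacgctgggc
CCNK, chr14:99481159-99481458, plus strand: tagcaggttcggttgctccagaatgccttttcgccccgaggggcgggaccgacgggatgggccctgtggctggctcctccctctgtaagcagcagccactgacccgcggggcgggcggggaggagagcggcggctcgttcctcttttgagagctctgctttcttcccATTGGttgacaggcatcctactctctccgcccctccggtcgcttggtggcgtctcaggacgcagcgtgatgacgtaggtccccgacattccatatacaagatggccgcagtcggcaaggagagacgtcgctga
CCNA1, chr13:36431705-36432004, plus strand: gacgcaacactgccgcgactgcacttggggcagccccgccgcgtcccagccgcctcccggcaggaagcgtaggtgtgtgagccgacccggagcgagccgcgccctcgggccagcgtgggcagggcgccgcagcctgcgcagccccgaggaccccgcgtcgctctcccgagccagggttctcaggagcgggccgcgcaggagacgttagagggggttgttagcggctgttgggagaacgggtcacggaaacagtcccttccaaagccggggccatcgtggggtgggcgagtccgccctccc

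In the CDK1 window shown, which belongs to the downstream of 2 RefSeq starts, the search found 3 CHR elements, beginning at -69, -13 and 10 from the start, and 2 CCAAT boxes, at -78 and -46. The window of the upstream start overlaps it and held 1 CHR element at -161 and 1 CCAAT box at -150. The CCNB2 window held 1 CHR element at -29 and 4 CCAAT boxes, and that of CCNB1 2 CCAAT boxes at -87 and -55. Neighbouring boxes lay 32 bases apart in the shown window of CDK1 and in CCNB1, and 33 bases apart at each of 2 steps in CCNB2 (from -120 to -87 and on to -54). CCNA2 and CCNK had 1 CCAAT box each and CCNA1 none; in these windows and that of CCNB1 no CHR element with the searched letters was found. A match is a run of letters and not a measured binding site.

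Windows were matched for 42 of the 48 members, 61 windows in all because some genes have several starts. No window was matched for CCND1, CCND2, CCNE2 and CDK2 of the cell cycle class, or for CCNYL2 and CCNYL6. The 14 windows of the cell cycle class thus cover 10 genes and leave out CCND1, CCNE2 and CDK2, which fell at least 2-fold. A CHR element stood in 4 of 14 windows of the cell cycle class (28.6%), 2 of 18 of the transcriptional class (11.1%) and 3 of 29 of the others (10.3%), against 16.4% of all 35116 windows. The genes holding one in the cell cycle class were CDK1, CCNB2 and CCNF. CCAAT boxes stood in 8 of 14 cell cycle windows (57.1%), 6 of 18 transcriptional ones (33.3%) and 34.6% of all windows. Counted by gene, a CCAAT box was found for 60% of the 10 cell cycle genes with a window, 50% of 12 transcriptional genes and 39.7% of all genes, and a CHR element for 30%, 16.7% and 19.5%. None of these shares was tested. GGCGG, the core letters of an E2F motif, was in 14 of 14 cell cycle windows and 37 of 47 windows of the other members (78.7%) and 59% of all windows. The longer E2F motifs TTCCCGC and TTGGCGC stood in 0 and 2 of the 14 cell cycle windows, against 6.55% and 3.04% of all windows; the 2 are overlapping windows of CDK1 and hold the same site, so 1 gene of 10 had it (3.66% of all genes). A search for the p53 decamer, the repeat unit of the p53 response element, found it in windows of CDK14, CCNL2 and CCNDBP1 only, and 6.63% of all windows held it.

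The arrays of a group correlated at 0.997 uninduced and 0.995 induced over all genes, and at 0.917 to 0.921 between groups. As a check of the labels, the p53 targets CDKN1A and MDM2 were higher on both induced arrays (log2 differences 3.43 and 2.89). KRT18, an epithelial keratin, and VIM, a mesenchymal filament protein, were bright in every sample, between 10.98 and 12.75 log2 units, although VIM fell by 0.40, CDH2 fell by 0.35 and the keratin gene KRT8 rose 2.21-fold, 3 of the 7 markers of that list. By contrast, the epithelial genes CDH1 and EPCAM lay between 5.39 and 5.94. KRT7, another keratin gene, read 7.49 to 7.92 and was not called (log2 fold change -0.30, limma adjusted p = 0.0506). Of 8 markers of differentiated lung measured, 2 rose, SCGB1A1 by 2.03 log2 units and SFTPC by 0.30; NKX2-1, the lung lineage factor, read 5.91 to 6.28. The part of these marker shifts in the results below was not tested. Of 6 blood markers measured, 1 rose (CD3E, by 0.26) and limma called 0 of 9 markers of fibroblasts and endothelium (0 also at an unadjusted p under 0.05). The median levels of these lists, 6.23 and 6.11 uninduced and 6.22 and 6.30 induced, give an idea of the array's reading for genes a carcinoma line should not express. No detection call was used. The counts of markers that rose or fell are to be read beside all genes, of which limma called 20.6% higher and 24.6% lower.

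Cell cycle cyclins and kinases fell almost as a body after induction. Of 14 measured, 11 fell, 2 rose (CCNA1 and CCND3) and 1, CCND2, did not pass the test, where a call is a Benjamini-Hochberg adjusted p under 0.05 in limma's moderated test over all genes. Over the whole array 24.6% of genes were called lower and 20.6% higher. Falls of at least 2-fold were called for 9 of the 14, against 6.77% of all genes. The median log2 fold change of the class was -1.47, beside 0.00 for all genes, -0.33 for the transcriptional class and -0.11 for the other members. The difference between the first 2 class medians was -1.15 log2 units, with no test of its own.

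**Figure D1:**
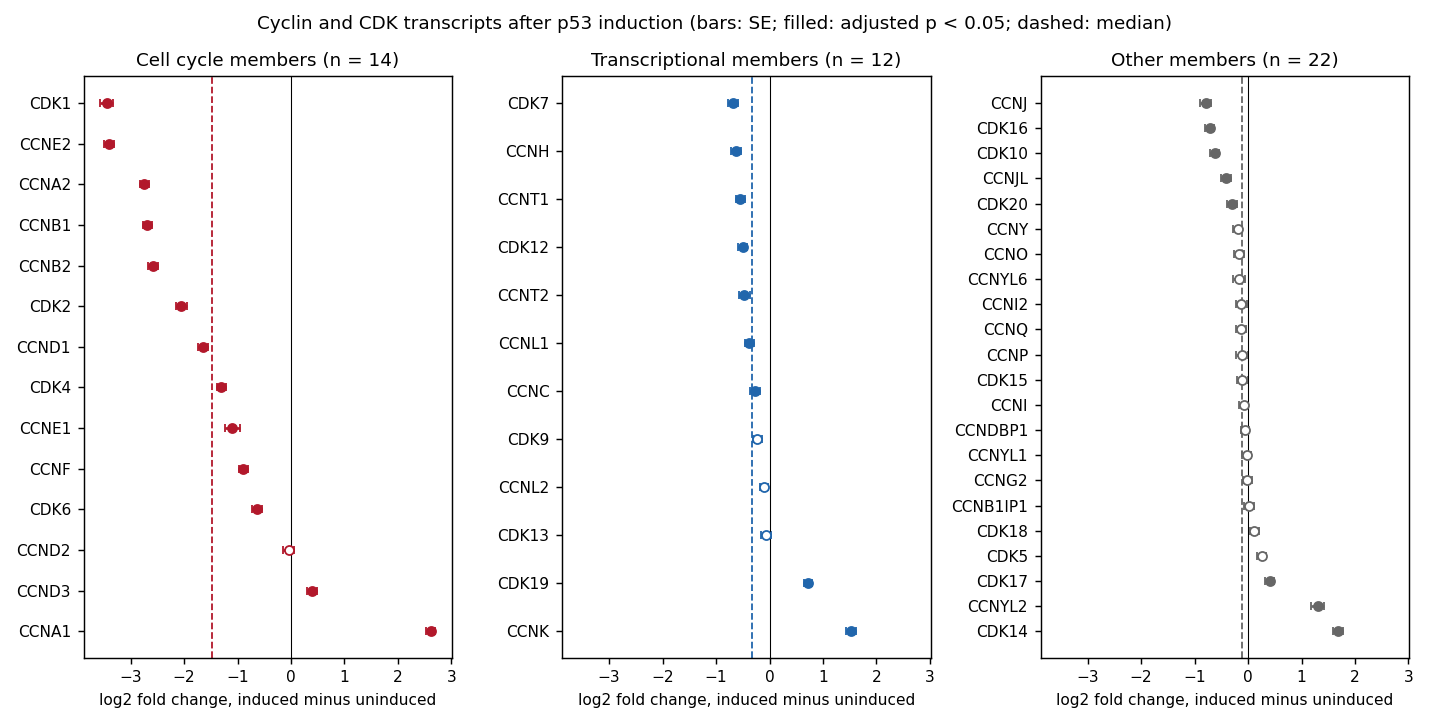
Log2 fold change of each of the 48 members (horizontal axis, induced minus uninduced; bars are standard errors), by class, with filled points for an adjusted p under 0.05 and a dashed line at the class median. In the cell cycle panel 9 genes lie beyond a 2-fold fall, whereas the panels of transcriptional and other members hold no such fall.

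CDK1 and the B-type cyclins of mitosis fell, as did CCNA2 and CCNF. CDK1, the kinase that drives entry into mitosis, read 10.21 and 10.33 log2 units on the uninduced arrays and 6.67 and 6.98 on the induced ones, a 10.9-fold fall (log2 fold change -3.45, SE 0.12, limma adjusted p = 1.07e-06). CCNB1, its main cyclin partner in mitosis, stood at 10.85 and 10.84 before and at 8.10 and 8.21 after, 6.45-fold lower. CCNB2, a B-type cyclin that associates with the Golgi, had 11.26 and 11.25 before and 8.60 and 8.74 after, 6.0-fold lower. In all 3 genes every induced array lay more than 2 log2 units below every uninduced one. The induced CDK1 readings lay within the range of induced means of the fibroblast and endothelial markers, 3.575 (LUM) to 7.97 (COL1A1). The size of the CDK1 fall thus depends on the background of the array. The induced readings of CCNF and CCNE1, given below, lay within that range too. CCNA2, the cyclin A of dividing somatic cells, went from 10.91 and 11.03 to 8.18 and 8.28, 6.68-fold lower. CCNF, an F-box protein that marks substrates for degradation and activates no kinase, fell by 0.89 (SE 0.087), from 8.47 on both uninduced arrays to 7.52 and 7.64. This was the smallest fall among the members of S phase, G2 and mitosis. The CCNF window held 2 CHR elements and 4 CCAAT boxes, and a link between motifs and the size of a fall was not tested.

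Cyclin A1 moved against cyclin A2. CCNA1, which is mostly known from the male germ line and some leukaemias, read 6.66 and 6.67 uninduced and 9.24 and 9.32 induced, a 6.13-fold rise (log2 fold change 2.62, SE 0.083, limma adjusted p = 8.55e-07). The arrays of the 2 groups were far apart for both genes, in opposite directions. CCNA1 started a little above the marker medians given earlier. Single fibroblast and endothelial markers ran from a mean of 3.53 (LUM) to 7.955 (COL1A1) uninduced. CCNA1 started within that range, so the size of its rise depends on the background of the array. It had the largest rise of the 48 members and stood at the 99.4th percentile of all log2 fold changes.

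E-type cyclins and CDK2, which start DNA replication, fell as well. CCNE2 read 9.49 and 9.5 uninduced and 6.03 and 6.16 induced, 10.6-fold lower, with an adjusted p of 6.11e-07 in limma's test. The induced readings were below the induced median of the fibroblast and endothelial markers, 6.30, so this fall ended near the level of those markers. CCNE1 had 8.20 and 8.22 before and 6.90 and 7.32 after (log2 fold change -1.10, SE 0.14). The 2 induced arrays of CCNE1 differed by more than those of any other member of the class, but neither reached the uninduced level. CDK2, the kinase that both cyclins activate, went from 10.35 and 10.33 to 8.17 and 8.40, 4.16-fold lower. The call of CCNE1 rested on having 2 uninduced arrays: its limma adjusted p was 0.0522 without the first and 0.055 without the second.

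The D-type cyclins, which respond to growth factors, did not move together. CCND1 fell from 10.75 and 10.70 log2 units to 9.14 and 9.02, 3.13-fold lower (limma adjusted p = 5.62e-06). CCND3 read 10.09 and 9.90 before and 10.40 and 10.37 after, a rise of 0.39 (SE 0.095). CCND2 stayed between 5.98 and 6.21 on all 4 arrays, at the level of the markers, with a log2 fold change of -0.04 and a 95% interval from -0.28 to 0.20. The groups were separate for CCND1 and CCND3 and overlapped for CCND2. Of the fits that left an array out, only that without the first uninduced one called the rise of CCND3; limma's adjusted p was 0.127 when the second uninduced array was dropped, 0.118 and 0.101 when the first or second induced one was, and 0.302 when tested against a fold of 1.2.

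Both kinases of the D-type cyclins fell. CDK4 read 11.28 and 11.17 uninduced and 9.88 and 9.97 induced, 2.46-fold lower (log2 fold change -1.30, SE 0.089). CDK6 read 10.28 and 10.35 before and 9.58 and 9.78 after, 1.55-fold lower (log2 fold change -0.64, SE 0.098). The groups did not overlap for either gene. Without the first or the second uninduced array, limma's adjusted p for CDK6 was 0.0515 and 0.0649.

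**Figure D2:**
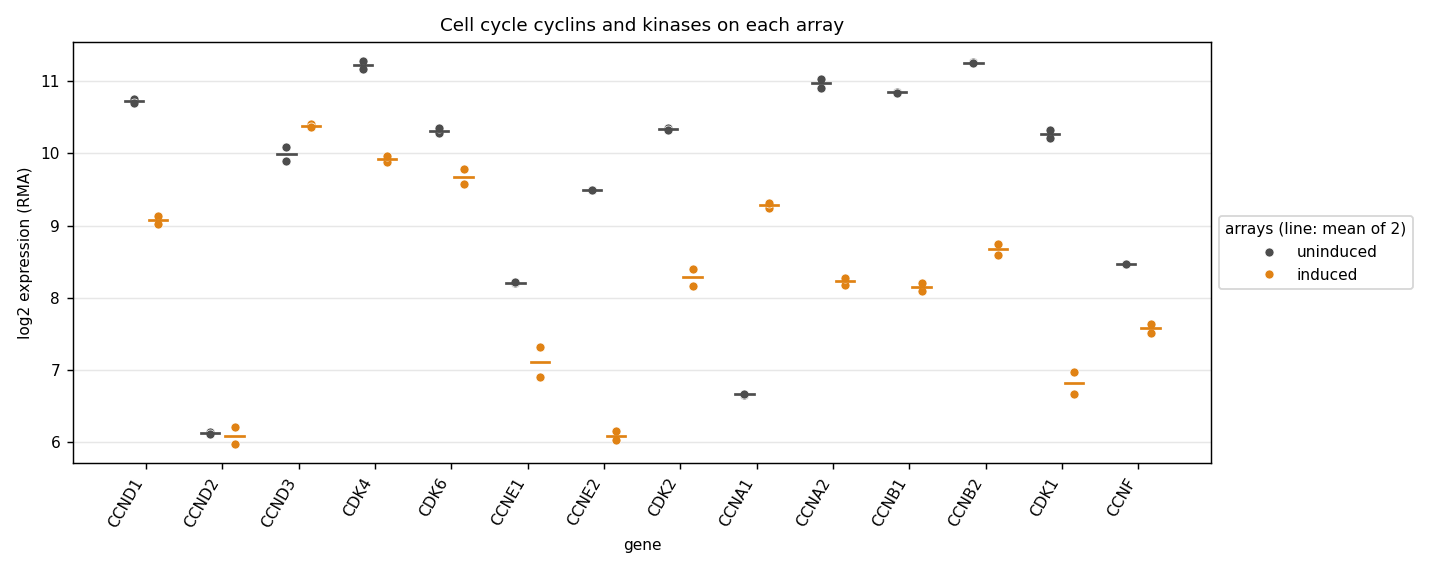
RMA log2 expression (vertical axis) of the 14 cell cycle members on each array, with grey points for the 2 uninduced and orange points for the 2 induced arrays and a line at each mean. The groups are apart for every gene shown except CCND2, and CCNA1 and CCND3 are the genes with the higher induced levels.

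Transcriptional cyclins and kinases changed less, and not all one way. Of 12 measured, 7 fell, 2 rose and 3 were not past the threshold, with 0 lower and 1 higher by 2-fold or more, against 6.77% and 6.48% of all genes; the shares over all genes were 24.6% lower and 20.6% higher. Their log2 fold changes ran from -0.69 for CDK7 to 1.53 for CCNK. The arrays of the groups did not overlap, with the induced ones lower, for 9 of the 12, against 34.3% of all genes. Small falls of this kind rested on the number of arrays: 7 were called with all arrays, but 3 once uninduced array 1 was left out, 2 once uninduced array 2 was, 5 once either of the induced arrays was, and 4 against a fold of 1.2.

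CDK7 and CCNH, the kinase and cyclin of TFIIH that also activate other CDKs, fell by about the same amount. CDK7 had 9.78 and 9.66 log2 units uninduced and 9.08 and 8.99 induced, 1.61-fold lower (limma adjusted p = 0.000499). CCNH had 8.82 and 8.99 before and 8.29 and 8.27 after, 1.54-fold lower (0.000941 in the same test). The second probe set annotated to CDK7 holds the same values on every array and adds no evidence. MNAT1, which holds the pair together, differed by -0.21 log2 units (SE 0.084, limma adjusted p = 0.089).

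In the elongation factor P-TEFb the cyclins fell and the kinase did not pass the test. CCNT1 read 10.85 and 10.92 before and 10.30 and 10.38 after (log2 fold change -0.55, SE 0.085). CCNT2 read 9.13 and 9.32 before and 8.66 and 8.85 after (-0.47, SE 0.11). Both genes were lower on both induced arrays. CDK9 read 10.30 and 10.27 uninduced and 10.03 and 10.08 induced, a log2 difference of -0.23 (SE 0.082, limma adjusted p = 0.0559). Its groups did not overlap either, and it passed without dim probe sets (limma adjusted p = 0.0279) and with a robust prior that follows intensity (0.00345). CCNT2 lost its call whichever array was left out (limma adjusted p from 0.0588 to 0.151), and CCNT1 did so without uninduced array 2 (0.0508).

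CCNK, the cyclin of CDK12 and CDK13 and a gene described before as a target of p53, went up. It read 10.04 and 10.10 log2 units uninduced and 11.50 and 11.69 induced, 2.88-fold higher (log2 fold change 1.53, SE 0.096, limma adjusted p = 1.22e-05). CDK12, which phosphorylates the tail of RNA polymerase II and is needed for full expression of long repair genes, read 9.88 on both uninduced arrays and 9.34 and 9.42 after induction, 1.41-fold lower. CDK13, its close relative, had 9.14 and 9.17 before and 9.0 and 9.17 after. The groups were separate for CCNK and CDK12, in opposite directions, and touched for CDK13 (log2 fold change -0.07, 95% interval from -0.29 to 0.15). Without the first or the second uninduced array the limma adjusted p of CDK12 was 0.052 and 0.0527.

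CDK19, a kinase of the Mediator complex, rose while cyclin C of the same module fell slightly. CDK19 read 8.01 and 7.98 uninduced and 8.71 and 8.72 induced, 1.65-fold higher (limma adjusted p = 0.000225). CCNC read 10.19 and 10.11 before and 9.79 and 9.96 after (log2 fold change -0.28, SE 0.095, limma adjusted p = 0.049). The fall of CCNC was just inside the threshold and was lost without any one array (limma adjusted p from 0.0518 to 0.291), with each array centred on its median (0.0995) and with all rows in the fit (0.0999). Of the L-type cyclins, which localise to sites of splicing, CCNL1 read 10.23 and 10.17 before and 9.81 and 9.83 after, 1.30-fold lower. CCNL2 differed by -0.11 log2 units (SE 0.082), and its second probe set one of -0.10. CCNL1 was not called without the first (0.0895) or the second uninduced array (0.0669 in limma's test).

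**Figure D3:**
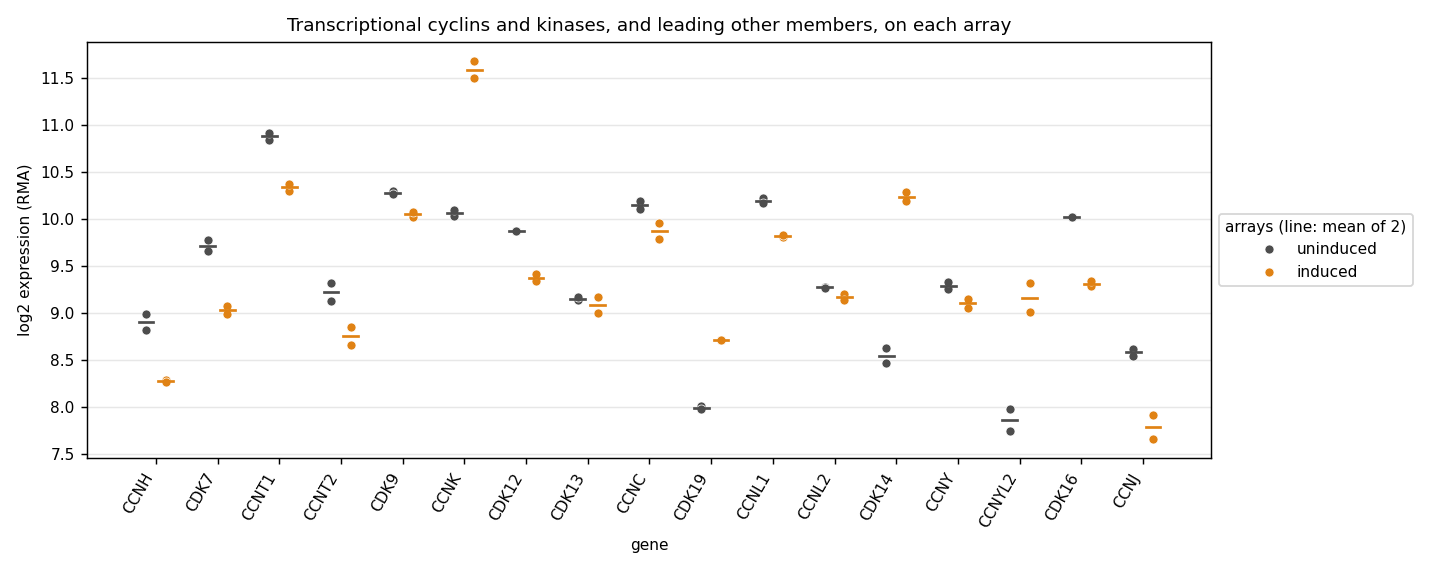
RMA log2 expression (vertical axis) of the 12 transcriptional members and of CDK14, CCNY, CCNYL2, CDK16 and CCNJ on each array, with grey points for the uninduced and orange points for the induced arrays and a line at each mean. CCNK, CDK19, CDK14 and CCNYL2 lie higher after induction, whereas the other genes drawn lie lower or overlap.

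Among the 22 members outside both classes, 3 rose, 5 fell and 14 were not called, against 45.1% of all genes called. CDK14, a kinase that works with cyclin Y at the plasma membrane in Wnt signalling, read 8.47 and 8.63 log2 units before and 10.19 and 10.29 after, 3.23-fold higher (log2 fold change 1.69, SE 0.095, limma adjusted p = 7.0e-06). CCNYL2 read 7.75 and 7.98 before and 9.01 and 9.32 after, 2.46-fold higher; near-identical copies of this gene family can share probes, so the value is uncertain. CCNJ fell from 8.62 and 8.55 to 7.92 and 7.66, and CDK16, another partner of cyclin Y, from 10.03 on both arrays to 9.29 and 9.34. The arrays of the groups were apart for these 4 genes. The call of CCNJ ended without uninduced array 1 (limma adjusted p = 0.0543).

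The remaining calls in this group were smaller. CDK10 fell by 0.63 (SE 0.088), CCNJL fell by 0.42 (SE 0.094) and CDK20 fell by 0.30 (SE 0.085), while CDK17 rose 1.32-fold. CDK20 and CDK17 lost their calls whichever array was left out, and CCNJL did so without any one array except uninduced array 2. CDK5, the neuronal kinase that is activated by p35, which is no cyclin, had a log2 difference of 0.26 (SE 0.090, limma adjusted p = 0.053) and passed under 4 of the alternatives. CCNG2, a cyclin linked to growth arrest, read between 7.83 and 7.95 on all 4 arrays (log2 fold change -0.01, 95% interval from -0.21 to 0.19). The other members not past the test, CCNY, CCNO, CCNYL6, CCNI2, CCNQ, CCNP, CCNI, CCNYL1, CDK15, CDK18, CCNDBP1 and CCNB1IP1, had log2 fold changes between -0.19 and 0.12.

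Partners known to bind each other were set side by side. CDK1 and CCNB1, CCNB2 and CCNA2 fell together. So did CDK4 and CDK6 with CCND1, CDK2 with CCNE1, CCNE2 and CCNA2, and CDK7 with CCNH. In other pairs the calls went opposite ways: CCNK rose and CDK12 fell, CDK19 rose and CCNC fell, and CCNA1 rose and CDK2 fell. CCND3 rose whereas CDK4 and CDK6 fell. The calls of CCND3, CCNC, CDK12, CCNE1 and CDK6 were not kept in every fit, as given above. CDK14 rose while CCNY had a log2 fold change of -0.19 (SE 0.086, limma adjusted p = 0.119). The difference between the changes of 2 partners was not itself tested.

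**Figure D4:**
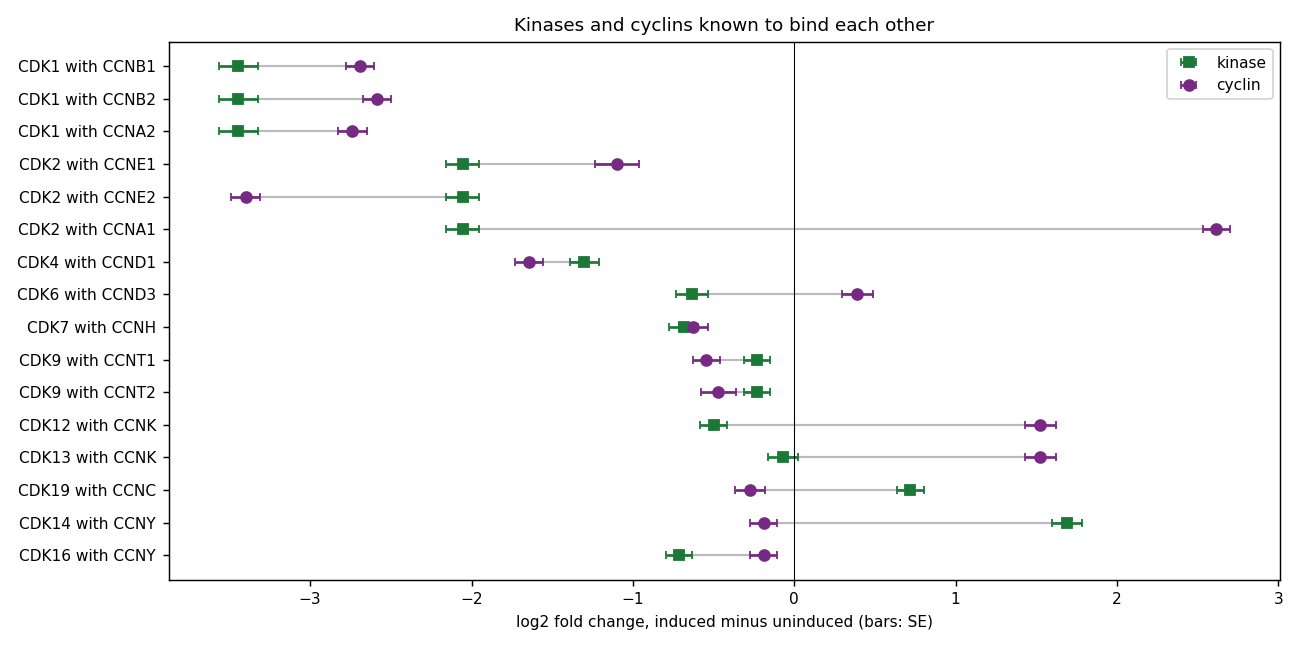
Log2 fold changes (horizontal axis, induced minus uninduced, with standard errors) of 16 kinase and cyclin pairs known to form complexes, with green squares for kinases and purple circles for cyclins. The longest gaps drawn are those of CDK2 with CCNA1 (-2.06 and 2.62) and CDK12 with CCNK (-0.50 and 1.53). CDK2 with CCNA2, CDK6 with CCND1 and CDK4 with CCND3 are not drawn.

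Genes that control these complexes were taken as further lists, to be read beside the 24.6% of all genes called lower and the 20.6% called higher. Of 7 CDK inhibitor genes measured, 2 rose and 2 fell (median log2 fold change 0.09). CDKN1A, which encodes p21, was 10.8-fold higher, and CDKN3, a phosphatase of CDKs, fell by 2.27 (SE 0.10). Of 5 genes that set the inhibitory phosphorylation of CDK1 and CDK2, 4 fell and 1 rose (median -1.79). CDC25C, a phosphatase that activates CDK1, fell by 2.49 (SE 0.14) and CDC25B fell by 1.98 (SE 0.091). The opposing kinases of the list went different ways: WEE1 rose 2.20-fold and PKMYT1 fell 2.16-fold. Among 5 listed binding partners of cell cycle kinases, 4 fell and 0 rose (median -0.82), led by the CDK subunits CKS1B (-2.44) and CKS2 (-1.80).

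The list for partners of the other kinases had a different tally. Its rises included SERTAD1 (log2 fold change 0.66), whose product is known to bind CDK4, a cell cycle kinase. Of 13 measured, 7 rose and 0 fell (median 0.24), with MED13L, of the Mediator kinase module, and AFF4, a scaffold of the super elongation complex that holds P-TEFb, at log2 fold changes of 0.82 and 0.74. HEXIM1, which inhibits P-TEFb, had one of -0.08 (SE 0.083). Of 6 CDK substrates and partners in the pocket protein complexes, 2 rose and 3 fell (median -0.91). MYBL2 fell by 2.77 and FOXM1 fell by 2.47, both transcription factors of the mitotic programme. Of 13 genes for cyclin degradation, 4 rose and 7 fell (median -0.36). CRYAB, a chaperone that also serves the cyclin D1 ligase FBXO4, had a log2 fold change of 6.22. It started at 5.49 and 5.26, below the marker medians. CDC20, an activator of the anaphase-promoting complex, fell by 2.73. The share of all genes called was 45.1%, as above.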

How the data were processed

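RNA of 4 samples was measured on a whole-transcript Affymetrix array. The deposited values are log2 expression levels per probe set, rounded to 2 decimals; per the submitters' processing notes, they were made with RMA in Affymetrix Expression Console. The versions, build and any filters used were not given in the sources used here. RMA equalises the arrays' distributions, so it would hide a shift shared by every transcript. The number of arrays limits the precision.

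Of 33297 probe sets, 19460 had 1 gene symbol in the platform annotation, 1754 several and 12083 none; only the first were named. Sample titles gave the groups. In R 4.3.3, limma 3.58.1 was fitted to all 18417 genes (lmFit and eBayes, a two-sided test on 7.2 degrees of freedom, 2 of them residual). P-values were adjusted by Benjamini-Hochberg over these genes, and the fit was tested on simulated data. Classes, lists and named genes were chosen with earlier results of these data known, and every member is accounted for. Array values were set beforehand for 22 cell cycle and transcriptional genes and the 4 other members with the largest change. Of the 22, CDK8 had no probe set of its own and has no values here, and CCND2 is given as a range. Array values of CCNA1, CCNF, CDK13, CDK19 and CCNG2, and the partner pairs, were chosen after their values were seen. All 48 member symbols matched RefSeq by gene ID. Promoters came from RefSeq (GRCh38.p14) and were searched in Python 3.11.15. Alternatives were repeated quantile normalization, median centring, no probe sets under the 40th percentile of level, the mean of a gene's probe sets, all rows, a robust prior following intensity, stricter classes, a block for the replicate number, limma's treat at a fold of 1.2, and each array left out in turn. The level of the introduced gene is not reported here.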

Additional observations from a re-analysis of the deposited data

Results flagged for a closer look

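Outside the comparison, which used only probe sets with 1 gene symbol, 1 probe set annotated to both CCNQ and CCNQP3, and so assigned to neither, was lower on the induced arrays. Probe set 7967879 read 8.23 and 8.13 log2 units uninduced and 7.76 and 7.56 induced, a log2 fold change of -0.52 (limma adjusted p = 0.0177 over all rows of the table). The probe set annotated to CCNQ alone had a log2 fold change of -0.13 and was not called (limma adjusted p = 0.332). With 2 arrays per group, no search for outlying arrays was made.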

How the results depend on the processing

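With 2 technical arrays per group, the fits without an array have 1 residual degree of freedom and assume that the lone array varies like the pair. The falls in the cell cycle class numbered 11 in every alternative with all arrays and all members, 10 of 12 without CCNA1 and CCNF (strict classes, which also leave out CCNH and CDK7), and 9 to 11 without an array. Genes called over the whole array numbered 5479 against a fold of 1.2 and 4959 to 6904 without an array. Against a fold of 1.2, 1 cell cycle member was called higher and 4 transcriptional members lower; the strict classes held 1 cell cycle member called higher. Without an array, 1 to 2 cell cycle members were called higher and 2 to 5 transcriptional members lower. The difference of class medians was -1.32 without dim probe sets, -1.60 with the strict classes and -1.19 to -1.09 without an array. Each of these alternatives uses fewer arrays or genes, or a stricter null hypothesis. With the replicate number as a block, 7820 genes were called, the cell cycle counts were the same and 6 transcriptional members were lower (CCNC was lost); deviations of same-numbered arrays correlated at 0.225 over genes, and the numbers mark no shared source in the labels. Scaling moved the median of all genes by at most 0.05. Of all genes called, 45.6% were higher as deposited, 50.2% after repeated quantile normalization and 51.1% after median centring. The balance of higher and lower calls over the array thus depended on scaling. Of the single members' values, 523 kept their side of the threshold, 43 lost a call, 6 gained one and 0 called ones changed direction.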

Other observations

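Relatives that the rule leaves out moved too. CCNG1, a cyclin known as a p53 target that activates no known division kinase, read 11.61 and 11.72 log2 units uninduced and 12.60 and 12.63 induced, a log2 fold change of 0.95 (SE 0.086, limma adjusted p = 7.36e-05), whereas its relative CCNG2 stayed level within its interval. CDK11A and CDK11B, kinases of splicing that pair with L-type cyclins, fell by 0.73 and 0.59 (SE 0.098 and 0.099). These 2 genes are near-identical copies that can share probes, so their values are uncertain.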
